A study of Mus musculus with 32 samples.

Results

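A set of 48 cell cycle and proliferation genes was followed by symbol through the 6 deposited tables of genes that differed between 2 groups of mouse hearts or muscles. The set was a chosen list of genes for the entry into S phase, DNA replication, mitotic entry, chromosome segregation and cytokinesis. It made up 48 of the 21924 protein-coding genes of the GRCm38 annotation used here, and 23 of the 48 were listed in at least 1 table. The other 25 were listed in none. Over all genes, coding or not, 6212 symbols were listed in at least 1 table.

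The study deleted Nrip1, which encodes the transcriptional corepressor RIP140, and sequenced mRNA from 32 samples in 10 groups. In the striated muscle line, Nrip1 f/f mice carrying MCK-Cre (strNrip1-/-) were compared with Cre-negative Nrip1 f/f littermates in heart, gastrocnemius and soleus, with 3 samples per group and male mice 8 weeks old. In the cardiac line, Nrip1 f/f mice carrying Nkx2.5-Cre (csNrip1-/-) and Cre-negative Nrip1 f/f littermates had sham surgery or transverse aortic constriction with a small apical infarction (TAC/MI) at 8 weeks of age. These mice were male, and the hearts were sequenced 4 weeks after surgery. These hearts came as 4 control sham, 3 control TAC/MI, 3 csNrip1-/- sham and 4 csNrip1-/- TAC/MI samples. Both loxP alleles were therefore present in every group, controls included. MCK-Cre is active in heart and skeletal muscle fibers, whereas Nkx2.5-Cre acts from early heart development on, and RNA was taken from whole tissue, so other cell types of the tissue contributed RNA. The infarcted apex was removed before RNA isolation, and the same region was removed from sham hearts.

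A check of the targeted gene came first. Nrip1 was listed as higher, not lower, in the hearts labelled csNrip1-/-, by 1.41 on the log2 scale after sham surgery (FDR 9.83e-13) and by 0.86 after TAC/MI (FDR 6.85e-06), each against controls with the same surgery. It was listed in none of the MCK-Cre tables. The tables have 1 value per gene, so they do not show whether the floxed exon itself was lost. This direction of the mRNA goes against the labels of the cardiac line, and protein is not in these tables. Cenpa, a cell cycle gene outside the set, was higher in strNrip1-/- heart (0.71 on the log2 scale) and in both cardiac knockout contrasts (0.65 and 0.76). Postn, a marker of activated fibroblasts, was lower in the same contrasts (-0.65, -0.72 and -1.13). What these genes say of the labels was not tested. Hearts of the cardiac line are named as labelled, and every direction drawn from them rests on those labels.

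Each table has 3 columns, a gene symbol, a log2 fold change that the authors shrank toward 0, and a p-value adjusted for the false discovery rate (FDR). A row is present only where the FDR was below 0.05 and the change at least 1.2-fold. The values of single samples and their errors are not in these tables, so no spread between samples is given here and each FDR is that of the deposited DESeq2 comparison. The FDR rests on the spread between the samples of a group, and the labels name these only as numbered replicates. A gene that is not listed may have been unchanged, too variable or too weakly expressed, and these cases cannot be told apart.

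A cell that divides passes from G1 into S phase when D-type cyclins with their kinases inactivate the retinoblastoma family and release E2F factors, which switch on genes of DNA replication. A later wave of genes serves mitosis. Cyclin B with CDK1 drives mitotic entry, kinetochore and spindle proteins align and part the chromosomes, and the anaphase-promoting complex with UBE2C marks cyclin B for destruction. Adult heart muscle cells and muscle fibers rarely divide, and most division in such tissue is known from fibroblasts, immune cells, vessel cells and, in skeletal muscle, satellite cells. In RNA of whole tissue, fewer dividing cells and less of the mRNA per cell cannot be told apart.

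The later wave is known to be read through paired promoter elements, a CCAAT box bound by NF-Y and a cell cycle genes homology region (CHR) near the start site, to which repressor complexes of the DREAM type bind in resting cells. Promoters of replication genes more often carry E2F elements. The 150 bases before the RefSeq start site are shown for 5 genes that were listed as lower in at least 1 knockout contrast and that carry both elements: Ube2c at chr2:164769779-164769928 (plus strand), Mki67 at chr7:135716380-135716529 (minus strand), Cdk1 at chr10:69352913-69353062 (minus strand), Top2a at chr11:99024190-99024339 (minus strand) and Kif11 at chr19:37376232-37376381 (plus strand). All are from RefSeq, build GRCm38.p6, and read 5′ to 3′ toward the gene. Capitals mark every CHR (TTTGAA, or TTCAAA on the other strand), every CCAAT box (CCAAT, or ATTGG on the other strand) and every E2F element of the forms searched.
Ube2c: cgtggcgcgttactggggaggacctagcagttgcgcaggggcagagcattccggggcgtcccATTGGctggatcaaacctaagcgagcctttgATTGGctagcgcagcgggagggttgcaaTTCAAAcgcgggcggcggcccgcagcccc
Mki67: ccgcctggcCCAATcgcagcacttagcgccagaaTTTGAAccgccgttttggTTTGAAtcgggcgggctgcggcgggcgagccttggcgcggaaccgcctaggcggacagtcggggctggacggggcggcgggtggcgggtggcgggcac
Cdk1: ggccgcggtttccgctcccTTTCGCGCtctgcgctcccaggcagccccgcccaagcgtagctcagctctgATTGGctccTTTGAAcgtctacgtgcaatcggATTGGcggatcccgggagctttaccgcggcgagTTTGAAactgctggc
Top2a: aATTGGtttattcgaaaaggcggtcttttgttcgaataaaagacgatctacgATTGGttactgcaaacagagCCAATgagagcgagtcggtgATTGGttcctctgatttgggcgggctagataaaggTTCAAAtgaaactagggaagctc
Kif11: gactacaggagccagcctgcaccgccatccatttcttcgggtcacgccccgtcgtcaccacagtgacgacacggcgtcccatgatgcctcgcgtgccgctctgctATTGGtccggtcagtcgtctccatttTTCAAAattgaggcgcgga

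In the Ube2c, Top2a and Kif11 sequences the CHR began at positions -29, -23 and -19 relative to the start site, downstream of every CCAAT box printed for the same gene. Cdk1 had CHRs at -71 and -15, and also an E2F element at -131. Mki67 had a pair of CHRs farther out, at -116 and -98.

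A window from 250 bases before to 50 bases after the start site was in the RefSeq table for 38 of the 48 genes. The CHR letters were in 20 of these 38 windows, or 52.6%, and in 18.5% of the windows of all 17492 coding genes searched. The CCAAT box was in 30 of 38 (78.9%), against 42.3% of all. An E2F element, searched as TTTCCCGC, TTTCGCGC, TTTGCCGC or TTTGGCGC on either strand, was in 6 of 38 (15.8%), against 3.29% of all. CHR and CCAAT box occurred together in 19 of 38 windows (50%), against 7.40% of all windows. Among 88 other cell cycle genes with a window, 46.6% held the CHR letters, 60.2% the CCAAT box, 25% an E2F element and 33.0% both CHR and CCAAT box. Each motif was counted on its own, so a CCAAT box and a CHR may share a base and E2F forms on opposite strands may overlap, as they did in Mcm5.

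The CHR and E2F letters differed by the role of the genes, the CCAAT box less so, and no difference was tested. The CCAAT box was in 9 of 11 replication, 6 of 7 mitotic entry, 9 of 10 chromosome and 6 of 8 spindle windows. The 2 windows of G1 genes held none of the elements. The CHR letters were in 1 of 11 windows of replication fork and nucleotide supply genes, in 5 of 7 of the mitotic entry genes, in 7 of 10 of the chromosome, kinetochore and checkpoint genes, and in 7 of 8 of the spindle and cytokinesis genes. The E2F letters showed the opposite distribution, with 5 of the 11 replication genes, 1 of the 7 mitotic entry genes and none of the 10 chromosome and 8 spindle genes. CHR letters were present in 12 of the 19 listed genes with a window and in 8 of the 19 that were listed in no contrast. Such a match describes letters in a window and was not tested for binding.

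**Figure D1:**
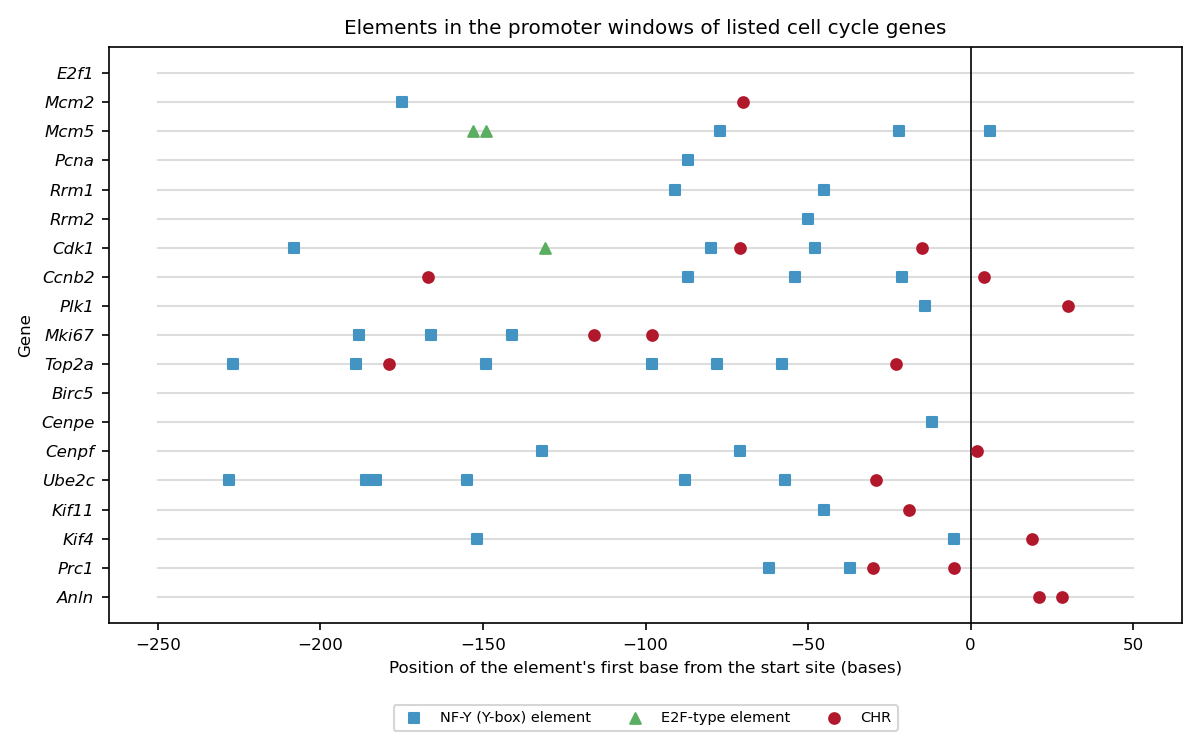
Positions of the searched elements in the RefSeq promoter windows of the 19 listed cell cycle genes that have one. The x axis gives the first base of each element from the start site in bases (start site at 0), each row is a gene, blue squares are CCAAT boxes (NF-Y elements), green triangles are E2F-type elements and red circles are CHRs. In Ube2c and Kif11 the CHR lies at -29 and -19, closest of their elements to the start site, and E2f1 and Birc5 have none of the 3 elements.

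Over the 6 contrasts the 48 genes gave 35 listed values. The 5 knockout contrasts held 26 of them, and 25 of the 26 were lower in the knockout (96.2%). Of all 6523 values that coding genes had in these same 5 tables, 3109 were lower (47.7%). The set was chosen with earlier results of these data known, so this split is a description of the chosen genes. A wider list of 112 other cell cycle genes, given below, went both ways. The 25 values came from 17 genes, and 6 genes were listed in more than 1 knockout contrast. The knockout contrasts of the MCK-Cre line alone gave 12 lower values and 1 higher value. The other 13 lower values came from the cardiac line, where Nrip1 goes against the labels. With the signs of that line turned, a count added after seeing the data, there would be 12 lower and 14 higher. This count shows only how far the total rests on the labels, and whether labels were exchanged was not tested. The surgery contrast, in control hearts only, was mixed, with 7 genes higher and 2 lower after TAC/MI. Of the 35 values, 14 had an FDR below 0.01 and 21 lay between 0.01 and 0.05. Of the coding genes listed in a table and direction, 41.6% to 81.0% were below 0.01.

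**Figure D2:**
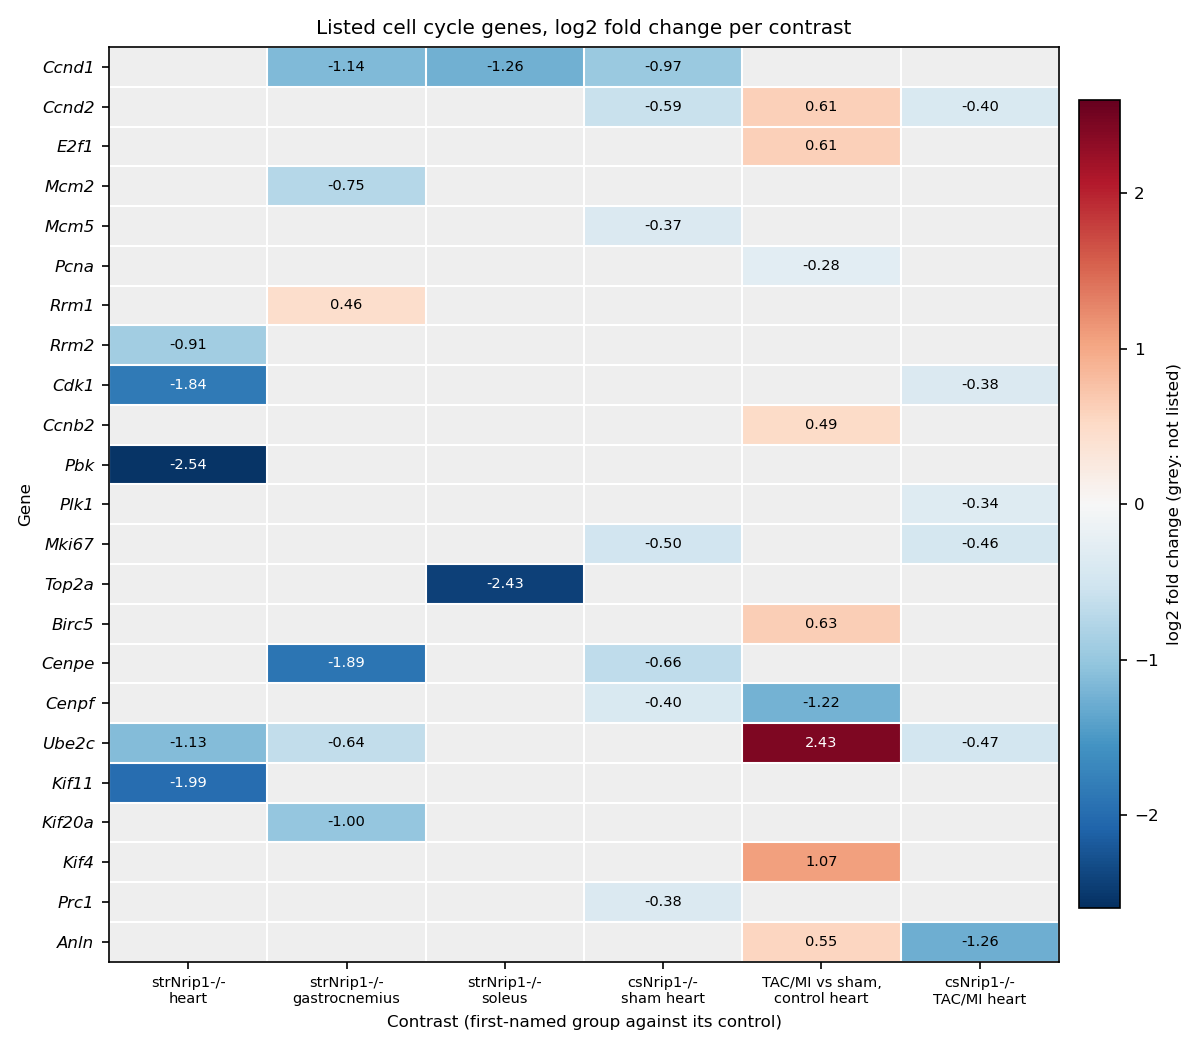
Log2 fold change of the 23 listed genes in each of the 6 contrasts, as deposited. Rows are genes ordered by role, columns are contrasts, blue cells are lower and red cells higher in the first-named group, the number in a cell is the log2 fold change and grey cells were not listed. Blue fills all knockout cells but 1 (Rrm1, 0.46, in gastrocnemius), and red cells lie mainly in the TAC/MI column.

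In strNrip1-/- heart, 5 of the 48 genes fell and none rose. The share listed as lower was 10.4%, beside 0.461% of all coding genes, and no gene of the set was higher, beside 0.848% of all coding genes. The 5 genes span replication and mitosis. Rrm2, the small subunit of ribonucleotide reductase that supplies deoxynucleotides, fell by 0.91 on the log2 scale (FDR 0.00199). Cdk1, the kinase that drives mitotic entry, fell by 1.84 (FDR 0.0366). Pbk, a mitotic kinase of proliferating cells, fell by 2.54 (FDR 0.0354). Ube2c, the ubiquitin-conjugating enzyme of the anaphase-promoting complex, fell by 1.13 (FDR 0.0112), and Kif11, the motor that pushes the spindle poles apart, fell by 1.99 (FDR 0.0126). Their median log2 fold change was -1.84, and that of all 101 coding genes listed as lower in this table was -0.76.

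The changes in strNrip1-/- heart were thus large for that table, with 4 of the 5 past 2-fold, beside 34.7% of the coding genes listed as lower. Of the 5, 1 had an FDR below 0.01, beside 41.6% of those coding genes, and the median FDR was 0.0126, beside 0.0156. Marker genes of other cells moved with them. Of the erythroid markers 3 of 5 were lower (Hbb-bt by -0.83, Hbb-bs by -0.72 and Hba-a2 by -0.56 on the log2 scale), of the activated fibroblast markers 2 of 6 (Acta2 -0.76, Postn -0.65), and of the macrophage markers 1 of 8 (Lyz2 -0.33). Markers of resting fibroblasts, lymphocytes, neutrophils, endothelium, pericytes and smooth muscle, satellite cells, skeletal muscle fibers and cardiomyocytes were not listed there. Their part in the result was not tested.

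In strNrip1-/- gastrocnemius, 5 of the 48 genes fell (10.4%, beside 4.05% of coding genes) and 1 rose (beside 4.68%). Ccnd1 encodes cyclin D1, which carries growth signals into G1, and fell by 1.14 on the log2 scale (FDR 0.00117). Mcm2, a subunit of the replicative helicase, fell by 0.75 (FDR 0.0155). Cenpe, the kinetochore motor, had the largest change of the 5 and fell by 1.89 (FDR 0.0411). Kif20a, a motor of the central spindle, fell by 0.998 (FDR 0.0246), and Ube2c fell by 0.64 (FDR 0.0136). Rrm1, the large subunit of ribonucleotide reductase and partner of Rrm2, rose by 0.46 (FDR 0.0104). This was the one rise among the knockout values of the set. The median of the 5 that fell was -0.998, beside -0.49 for all 889 coding genes listed as lower.

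Beside these, 2 of 5 satellite cell markers were lower in gastrocnemius (Calcr by -1.11, Myf5 by -0.66 on the log2 scale), 2 of 6 activated fibroblast markers were lower (Postn -0.79, Fn1 -0.40), and the lymphocyte marker Ighm was at -1.52. By contrast 3 of 5 neutrophil markers were higher, with S100a9 at 3.55, and 2 of 7 endothelial markers were higher. Of the genes used as cardiomyocyte markers in heart, 6 of 7 were higher (Myh6 by 1.99, Ryr2 by 1.93 and Tnni3 by 1.70 among them) and Actc1 was lower (-0.89). Gastrocnemius is skeletal muscle, so these genes do not mark cardiomyocytes here. The muscle fiber marker Myh1 was higher (0.63), and the fibroblast marker Lum was lower (-0.59). Macrophage markers were not listed. The part of any cell type in the result was not tested.

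In strNrip1-/- soleus, only 2 of the 48 genes were listed, both lower (4.17%, beside 1.01% of coding genes; for higher genes the background was 1.58%). Ccnd1 fell by 1.26 on the log2 scale (FDR 0.000743), close in size to its change in gastrocnemius. Top2a, the topoisomerase that untangles chromosomes in G2 and mitosis, fell by 2.43 (FDR 0.00417). Both FDR values were below 0.01. Of the neutrophil markers 3 of 5 were higher (S100a9 by 3.32) and the macrophage marker Lyz2 was at 0.48. The lymphocyte marker Ighm was lower (-1.29), as were the muscle fiber markers Myh4 (-5.03) and Ckm (-0.42), whereas satellite cell and fibroblast markers were not listed. The part of these cells in the result was not tested.

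In sham hearts labelled csNrip1-/-, 7 of the 48 genes fell and none rose, or 14.6%, beside 4.34% of coding genes listed as lower and 4.89% listed as higher. The D-type cyclins stood out by their FDR. Ccnd1 fell by 0.97 on the log2 scale (FDR 9.37e-08) and Ccnd2, which encodes cyclin D2, fell by 0.59 (FDR 7.09e-07). Mki67, whose protein coats mitotic chromosomes and is the usual marker of dividing cells, fell by 0.50 (FDR 0.0134). Cenpe fell by 0.66 (FDR 0.00757), Cenpf, a protein of the outer kinetochore, fell by 0.40 (FDR 0.0306), Prc1, which bundles the central spindle, fell by 0.38 (FDR 0.0354), and the helicase subunit Mcm5 fell by 0.37 (FDR 0.0412). None of the 7 reached 2-fold. Their median was -0.50, beside -0.39 for the 951 coding genes listed as lower.

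In the same sham contrast, 3 of 6 activated fibroblast markers were lower (Acta2 by -1.20, Cilp by -1.16 and Postn by -0.72 on the log2 scale), 2 of 7 endothelial markers were lower (Kdr -0.46, Vwf -0.28), and 2 of 5 pericyte and smooth muscle markers were lower. Of the resting fibroblast markers 2 of 7 were lower and 1 (Dcn) was higher. Macrophage, lymphocyte and erythroid markers were not listed, and 2 of 5 neutrophil markers were higher. Of the cardiomyocyte markers 3 of 7 were lower (Actc1 -0.67, Myh6 -0.36 and Myl2 -0.27), and Myh7, the slow myosin, was higher by 2.33. Their part in the result was not tested.

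In control hearts, TAC/MI against sham gave 7 genes higher (14.6%, beside 8.14% of coding genes) and 2 lower (4.17%, beside 6.93%). Ube2c had the largest change of any of the 48 genes to rise, by 2.43 on the log2 scale or 5.41-fold (FDR 6.86e-06). Ccnd2 rose by 0.61 (FDR 2.32e-07), and E2f1, the activator of S phase genes, also by 0.61 (FDR 0.0194). Kif4, a chromosome-bound motor, rose by 1.07 (FDR 0.00391). Birc5, the survivin subunit of the chromosomal passenger complex, rose by 0.63 (FDR 0.0232), Anln, the anillin scaffold of the cleavage furrow, by 0.55 (FDR 0.0151) and Ccnb2, a B-type cyclin, by 0.49 (FDR 0.0457).

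The 2 genes that fell after TAC/MI were Cenpf, by 1.22 on the log2 scale (FDR 0.00127), and Pcna, the sliding clamp of DNA polymerase, which fell by 0.28 (FDR 0.00145). The general markers of division Mki67 and Top2a were not listed in this contrast, nor was Cdk1. The median of the 7 that rose was 0.61, beside 0.51 for all 1784 coding genes listed as higher. Markers of several cell types rose in the same contrast, with 5 of 6 activated fibroblast markers (Cilp 3.21, Postn 2.79, Tnc 2.25, Fn1 1.49 and Cthrc1 4.17 on the log2 scale), 5 of 7 fibroblast markers, 6 of 8 macrophage markers and 5 of 5 erythroid markers. The sixth activated fibroblast marker, Acta2, was lower (-0.34), as were 4 of 7 cardiomyocyte markers (Myh6 -0.79, Tnni3 -0.77, Pln -0.56 and Myl2 -0.48). Their part in the result was not tested.

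In TAC/MI hearts labelled csNrip1-/-, 6 of the 48 genes fell against control TAC/MI hearts and none rose, or 12.5%, beside 4.31% of coding genes listed as lower and 3.58% listed as higher. Anln fell by 1.26 on the log2 scale (FDR 1.51e-05), the largest of the 6. Ccnd2 fell by 0.40 (FDR 0.000539). The others had FDR values above 0.01. Ube2c fell by 0.47 (FDR 0.0221), Mki67 fell by 0.46 (FDR 0.0208), Cdk1 fell by 0.38 (FDR 0.0398) and Plk1, the polo-like kinase of mitosis, fell by 0.34 (FDR 0.0497). The median of the 6 and that of the 946 coding genes listed as lower were both -0.43, so the changes were of the usual size for this table.

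In the same contrast, 5 of 6 activated fibroblast markers were lower (Postn by -1.13, Cilp by -1.06, Fn1 by -0.57, Tnc by -0.43 and Acta2 by -0.42 on the log2 scale), 2 of 7 fibroblast markers were lower (Col1a1 -0.66, Col1a2 -0.57), and 1 of 8 macrophage markers was lower (Cd163 -0.73). Of the cardiomyocyte markers 3 of 7 were higher (Tnni3 0.58, Pln 0.38 and Myh6 0.31), and Myh7 (-2.13) and Acta1 (-1.69) were lower. Endothelial, lymphocyte, neutrophil and erythroid markers were not listed. Their part in the result was not tested.

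**Figure D3:**
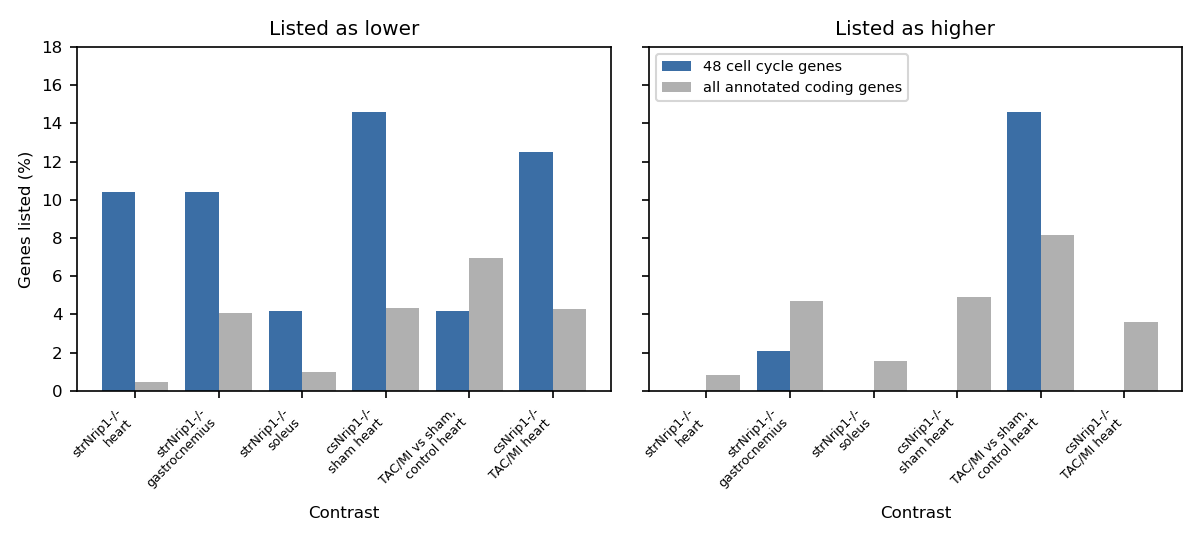
Share of the 48 cell cycle genes (blue) and of all 21924 annotated coding genes (grey) listed in each contrast, in percent, as lower (left) and as higher (right). Blue exceeds grey among lower genes in all 5 knockout contrasts, from 4.17% against 1.01% in soleus to 14.6% against 4.34% in csNrip1-/- sham heart, and among higher genes after TAC/MI (14.6% against 8.14%), where the shares over genes listed at least once were near each other at 30.4% and 29.4%. The direction of both csNrip1-/- contrasts rests on labels that the Nrip1 value goes against.

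The background shares count every annotated coding gene, expressed or not, because the number of genes that DESeq2 tested is not in these tables. They therefore lie below the share among expressed genes. A second base was the 6212 symbols listed in at least 1 table, 23 of them from the set. On it, the lower genes of strNrip1-/- heart made up 21.7% of the set and 1.63% of all symbols, and those of gastrocnemius 21.7% and 14.9%. In soleus the lower shares were 8.70% and 3.80%, in csNrip1-/- sham heart 30.4% and 15.6%, and in csNrip1-/- TAC/MI heart 26.1% and 15.5%. After TAC/MI in controls the higher shares were 30.4% and 29.4%, near the background, and the lower shares were 8.70% and 25.4%.

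By role, the G1 regulators held 3 listed members of 5, E2f1 once and both D-type cyclins in 3 contrasts each. Ccnd1 was at -1.14 in strNrip1-/- gastrocnemius, -1.26 in soleus and -0.97 in csNrip1-/- sham heart on the log2 scale. It was not listed in strNrip1-/- heart or in either TAC/MI contrast. Ccnd2 was listed in the cardiac line alone, at -0.59 in csNrip1-/- sham heart, 0.61 after TAC/MI in controls and -0.40 in csNrip1-/- TAC/MI heart. The surgery contrast and each cardiac knockout contrast share control libraries, so a value in one is not independent of a value in the other. The E-type cyclins Ccne1 and Ccne2, which act with CDK2 at the entry to S phase, were listed in no contrast.

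Of the 12 replication and nucleotide genes, 5 were listed, each in a single contrast. These were Rrm2, Mcm2 and Mcm5 (lower in a knockout), Rrm1 (higher in a knockout) and Pcna (lower after TAC/MI). The remaining helicase subunits Mcm3, Mcm4, Mcm6 and Mcm7, the thymidylate enzymes Tyms and Tk1, and Uhrf1, which keeps DNA methylation through replication, were not listed.

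Of the 10 mitotic entry genes, 4 were listed. Cdk1 was at -1.84 in strNrip1-/- heart and -0.38 in csNrip1-/- TAC/MI heart on the log2 scale, and Pbk, Ccnb2 and Plk1 were listed once each. Ccna2 and Ccnb1, the other cyclins of G2 and mitosis, the transcription factor Foxm1, the kinases Melk and Aurka, and Cdca3 were not listed.

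Chromosome and kinetochore genes held 6 listed members of 11, the most of any role by count though not by share. Mki67 was lower in both cardiac knockout contrasts, at -0.50 with sham and -0.46 with TAC/MI surgery on the log2 scale. Cenpe was at -1.89 in strNrip1-/- gastrocnemius and -0.66 in csNrip1-/- sham heart. Cenpf was the one gene of the set that was lower both in a knockout contrast and after TAC/MI (-0.40 and -1.22). Ube2c was listed in 4 contrasts, more than any other of the 48, with -1.13 in strNrip1-/- heart, -0.64 in strNrip1-/- gastrocnemius, 2.43 after TAC/MI in controls and -0.47 in csNrip1-/- TAC/MI heart. Top2a and Birc5 appeared once each. The passenger complex genes Aurkb and Cdca8, the checkpoint genes Bub1 and Bub1b, and Cdc20, the activator of the anaphase-promoting complex, were not listed.

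Of the 10 spindle and cytokinesis genes, 5 were listed. Anln was at 0.55 after TAC/MI in controls and at -1.26 in csNrip1-/- TAC/MI heart on the log2 scale, contrasts that share the control TAC/MI libraries. Kif11, Kif20a, Kif4 and Prc1 were listed once each. Kif23, Nusap1, Tpx2, Hmmr and Ect2 were not listed.

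**Figure D4:**
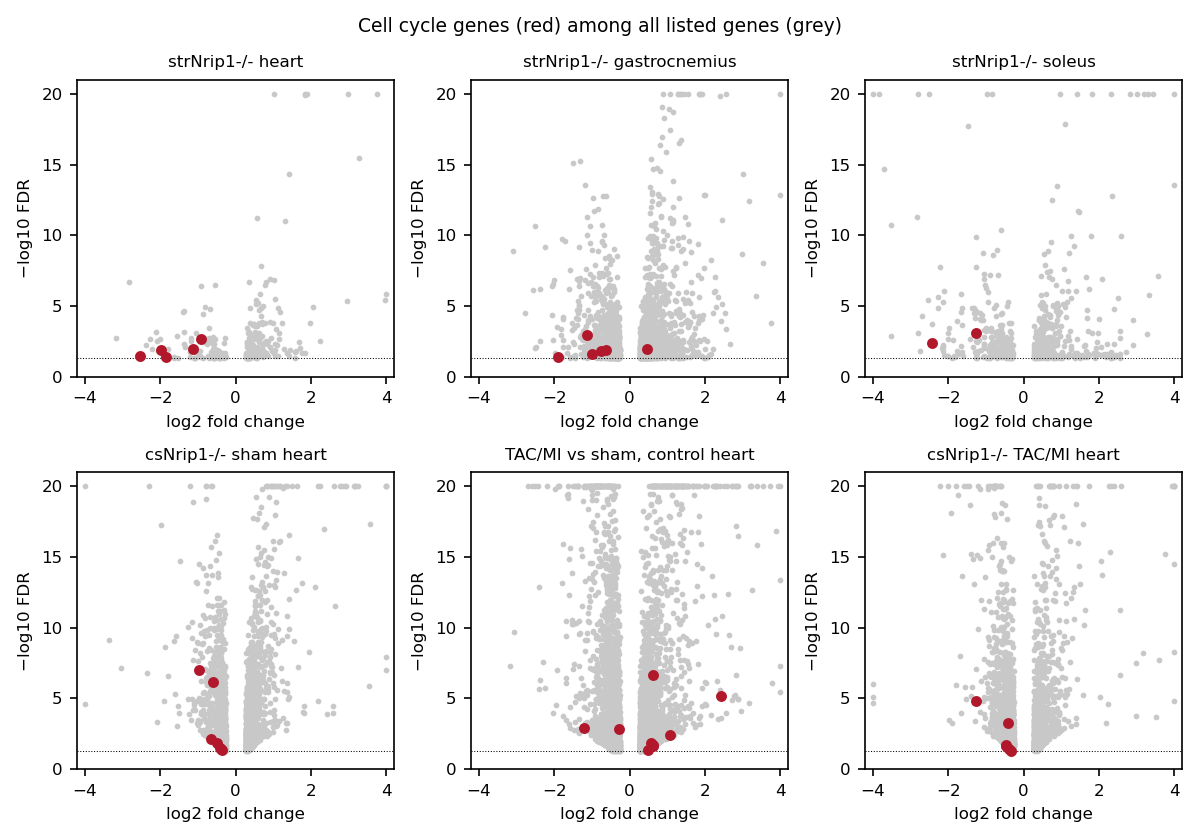
Log2 fold change (x axis, values beyond 4 in either direction drawn at 4) against -log10 FDR (y axis, values above 20 drawn at 20) of every listed gene in the 6 contrasts. Grey points are all listed genes, red points the cell cycle genes, and the dotted line is an FDR of 0.05. Most red points lie near the line, and Ccnd1 and Ccnd2 in csNrip1-/- sham heart and Ccnd2 and Ube2c after TAC/MI lie highest.

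Gene models that share sequence make some of these values uncertain. The library kit as named does not keep strand, so reads from overlapping genes on opposite strands may be split either way. Ube2c (chr2:164769898-164778822, plus strand) shares 592 of its 2600 exon bases, or 22.8%, with Tnnc2, the fast skeletal muscle troponin C gene on the other strand. Tnnc2 itself was listed in no contrast. Ccnd1 (chr7:144929931-144939925, minus strand) shares 23.4% of its exon bases with the gene LTO1, which was listed at -0.32 on the log2 scale in csNrip1-/- sham heart (FDR 0.0462), where Ccnd1 was at -0.97. Kif20a shares 29.3% of its exon bases with Cdc23, Kif4 (chrX:100625737-100727214) 15.1% with Pdzd11, and Prc1 (chr7:80294450-80316259, plus strand) 11.1% with Rccd1, and these partners were listed in no contrast. Pcna, Ccnb2 and Kif4 also have annotated pseudogene copies, none of them listed.

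The remaining genes whose values are described in most detail lie apart from such partners or overlap them little. Anln lies at chr9:22332012-22389188, Cdk1 at chr10:69335146-69352938, Mki67 at chr7:135689784-135716361, Kif11 at chr19:37376403-37421859 and Cenpe at chr3:135212537-135273611 in GRCm38. Top2a, at chr11:98992943-99024189, shares 1.35% of its exon bases with a small nucleolar RNA gene. Ccnd2, at chr6:127125162-127152193, shares 3.91% and 3.95% with a pair of antisense genes.

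A wider list of 112 other cell cycle genes was read in the same way, and its listed values went both ways. In strNrip1-/- heart 1 was higher and 2 lower, in gastrocnemius 6 and 5, in soleus 1 and 1, in csNrip1-/- sham heart 4 and 1, in csNrip1-/- TAC/MI heart 6 and 4, and after TAC/MI in control hearts 5 and 11. Of all coding genes, 0.848% were higher and 0.461% lower in strNrip1-/- heart, 4.68% and 4.05% in gastrocnemius, and 1.58% and 1.01% in soleus. The shares were 4.89% and 4.34% in csNrip1-/- sham heart, 3.58% and 4.31% in csNrip1-/- TAC/MI heart, and 8.14% and 6.93% after TAC/MI in controls. Most counts of the wider list lay near or below these shares. Ccnf, the cyclin F of an SCF ubiquitin ligase, was at -2.11 on the log2 scale in heart (FDR 0.00065). In gastrocnemius, the spindle pole gene Aspm was at -2.49 (FDR 0.00761), the DNA repair gene Brca1 at -2.37 (FDR 0.00271) and E2f2, an activating E2F, at -2.00 (FDR 1.44e-07). Fam83d, a spindle protein, was at -2.13 in soleus (FDR 0.0139).

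Kinetochore genes went both ways. Cenpa, the histone H3 variant that marks the centromere, was higher in 4 of the 5 knockout contrasts, at 0.71 in strNrip1-/- heart (FDR 0.000133), 0.51 in gastrocnemius (FDR 0.0249), 0.65 in csNrip1-/- sham heart (FDR 3.12e-11) and 0.76 in csNrip1-/- TAC/MI heart (FDR 1.13e-14) on the log2 scale. Sgo2a, a shugoshin that protects centromeric cohesion, was higher in 3 of them, at 0.77 in soleus, 0.49 in csNrip1-/- sham heart and 0.58 in csNrip1-/- TAC/MI heart, and was at -0.78 after TAC/MI in controls. Cenpe and Cenpf, of the same structure, were lower where they were listed.

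Inhibitors of cyclin-dependent kinases were listed as well. Cdkn1a, which encodes the inhibitor p21, was higher in strNrip1-/- gastrocnemius (1.70 on the log2 scale, FDR 0.0029) and in csNrip1-/- sham heart (0.87, FDR 1.37e-06). It was higher after TAC/MI in control hearts (1.69, FDR 3.90e-20) and lower in csNrip1-/- TAC/MI heart (-1.80, FDR 4.72e-22). Other inhibitors went both ways after TAC/MI in control hearts, Cdkn2b at 1.04, Cdkn1c at -0.45, Cdkn1b at -0.34 and Cdkn2c at -0.33. In gastrocnemius Cdkn2c was at 0.41. Ccnd1 was lower in both contrasts in which Cdkn1a was higher in the knockout. It was also lower in strNrip1-/- soleus (-1.26), where Cdkn1a was not listed. In csNrip1-/- TAC/MI heart Ccnd1 was not listed. A link between these genes was not tested. The pocket protein gene Rbl2 was at 0.70 in gastrocnemius (FDR 0.00033) and at -0.42 after TAC/MI in control hearts (FDR 0.000188). Its relative Rbl1 was at -0.76 in strNrip1-/- heart (FDR 0.00275). After TAC/MI, the securin gene Pttg1 was at -0.60 (FDR 3.23e-13) and Dut, which clears dUTP, at -0.67 (FDR 1.20e-06), and in csNrip1-/- TAC/MI heart both were listed the other way, Pttg1 at 0.28 and Dut at 0.43. These contrasts share the control TAC/MI libraries.

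**Figure D5:**
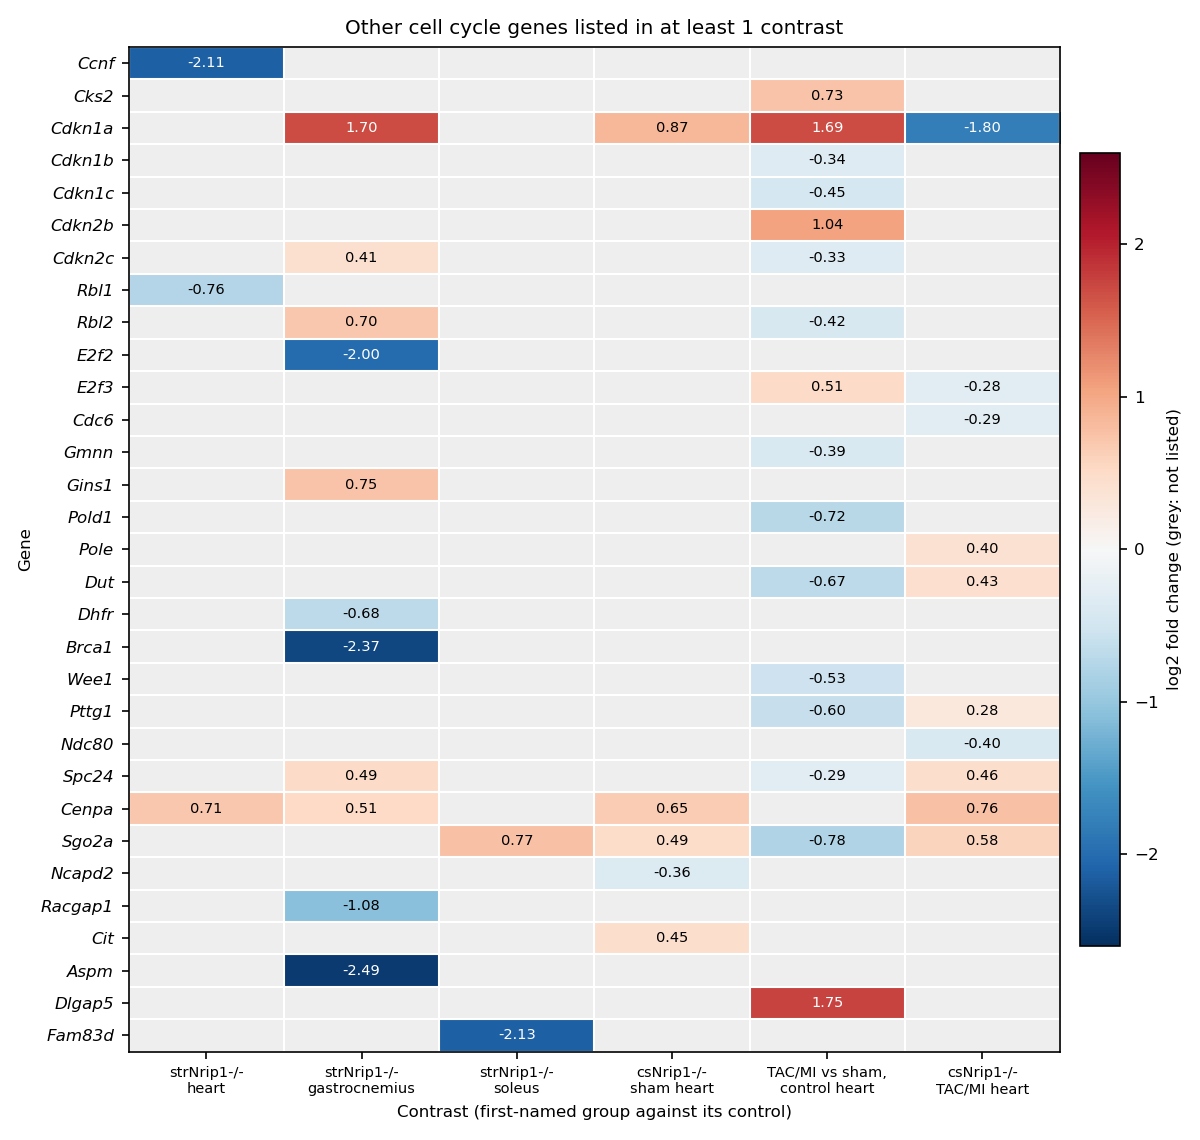
Log2 fold change of the genes from the wider list of 112 other cell cycle genes that were listed in at least 1 contrast, drawn as for the first set. Rows are genes, columns are contrasts, blue is lower, red is higher and grey was not listed. Cenpa is red in 4 of the 5 knockout columns, and Cdkn1a is red in gastrocnemius, csNrip1-/- sham heart and the TAC/MI column and blue (-1.80) in csNrip1-/- TAC/MI heart.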

How the data were processed

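mRNA of heart, gastrocnemius and soleus was enriched with oligo(dT), made into libraries with the NEBNext Ultra kit and sequenced in paired ends. Per the labels and the submitters' processing notes, the authors quantified reads with Salmon 1.3.0 against GRCm38 (mm10) and compared groups with DESeq2 1.36.0, with fold changes shrunk by ashr. The annotation release was not given in the sources used here. The deposited tables hold per gene symbol the log2 fold change and its p-value after adjustment (FDR), with rows only for an FDR below 0.05 and at least 1.2-fold. They are the authors' own comparisons and the only values used. Depth is unknown, and no test could be run again.

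The planned counts of listed genes were made with Python 3.11.15 and pandas 2.3.3, after the counting script was tested on simulated data. Symbols were matched exactly, and all 48 were in GENCODE. Every listed value of the 48 genes is given, and of other lists up to 4 genes per contrast with the smallest FDR, plus Nrip1. Cenpa and Aspm in gastrocnemius, Pttg1 and Dut in csNrip1-/- TAC/MI heart and cell type markers beyond that number were named after their values were seen. The same holds for Cdkn2c in gastrocnemius and for Cdkn1b, Cdkn1c, Cdkn2b, Cdkn2c and Rbl2 after TAC/MI. The genes and lists were chosen with earlier results of these data known. Alternatives were stricter thresholds, another background and medians without D-type cyclins. Figures were drawn with matplotlib 3.10.9.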

Additional observations from a re-analysis of the deposited data

How the results depend on the processing

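With the threshold raised to 1.5-fold, the number of the 48 genes listed as lower stayed at 5 in strNrip1-/- heart and gastrocnemius and at 2 in soleus, and went from 7 to 3 in csNrip1-/- sham heart, from 6 to 1 in csNrip1-/- TAC/MI heart and from 2 to 1 after TAC/MI in controls, where 5 of 7 higher genes remained. Rrm1, the 1 gene higher in gastrocnemius, went to 0 under each stricter threshold. At 2-fold the lower genes numbered 4, 2, 2, 0 and 1 in the 5 knockout contrasts, in the order heart, gastrocnemius, soleus, csNrip1-/- sham and csNrip1-/- TAC/MI, and after TAC/MI in controls 3 were listed, 2 higher and 1 lower. At an FDR below 0.01 they numbered 1, 1, 2, 3 and 2 in the same order, and after TAC/MI in controls 5 were listed, 3 of them higher. The total of lower knockout values went from 25 to 16, 9 and 9, and that of higher ones from 1 to 0, in these 3 settings. Chosen after seeing the data, the MCK-Cre line alone gave 12 lower and 1 higher value. Without Ccnd1 and Ccnd2 the median log2 fold change of the lower genes was -0.87 in gastrocnemius, -2.43 in soleus, -0.40 in csNrip1-/- sham and -0.46 in csNrip1-/- TAC/MI heart, and that of the higher genes after TAC/MI was 0.62. Leaving out symbols on several rows left all 35 values in place. Leaving out single replicates was not run, since the tables have no values of single samples. No paired analysis was possible because the tables give 1 value per gene and comparison, without the numbered replicates.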
